A study of Mus musculus with 21 samples.

Results

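The nuclear-encoded subunits of respiratory chain complexes I to IV were followed in sorted cardiac macrophages and splenic monocytes of the mouse. Members were protein-coding genes whose symbol names a subunit of complex I (Ndufa, Ndufb, Ndufc, Ndufs or Ndufv followed by digits only), complex II (Sdha to Sdhd), complex III (symbols starting with Uqcr, and Cyc1) or complex IV (symbols starting with Cox4, Cox5, Cox6, Cox7 or Cox8), with at least 1 CPM (library-scaled counts) in at least 3 libraries. The rule gave 62 members among 27179 gene IDs, of which 36 belonged to complex I, 4 to complex II, 8 to complex III and 14 to complex IV. Of 68 symbols that fit the naming rule, 67 had a row in the count table, and 5 of these stayed under the CPM minimum. Uqcr11, Cox7b2 and Cox8c had a total of 0 counts over the 21 libraries, Cox4i2 reached 1 CPM in 0 libraries and Cox8b in 1 library. Uqcr11 is a complex III subunit of most tissues, and whether its 0 reflects how reads were counted was not tested. The members nearest to the minimum were Ndufb4, which reached 1 CPM in 12 libraries, and Cox7a1, which reached it in 13. Ndufb1 was not analysed here.

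The cells came from C57BL/6 mice and filled 7 groups of 3 libraries. Cardiac macrophages were taken from mice given CAWS, a water-soluble complex of Candida albicans used to model Kawasaki disease, and from naive mice that received none. In both kinds of mice the macrophages that lack Ccr2 were sorted by MHC-II into R1, which is low for it, and R2, which is high, and R3 carries Ccr2 together with high MHC-II. The seventh group held Ccr2-positive splenic monocytes of naive mice. Each library stands for a pool of mice, so p-values measure the spread between pools. In the main fit each gene has 1 estimate of that spread, taken over the pools of all 7 groups and not only of the groups compared. Per the series design each heart pool gave 1 library of each population, so the 3 populations of a pool are not independent. In such bulk samples a smaller share of cells of one type and less RNA per cell cannot be told apart.

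The respiratory chain of the inner mitochondrial membrane passes electrons from NADH (complex I) and succinate (complex II) through ubiquinone to complex III, and on through cytochrome c to complex IV, which reduces oxygen. Complexes I, III and IV pump protons, and the gradient drives ATP synthase, complex V. Most subunits are encoded in the nucleus and are imported, while a small core is encoded in mitochondrial DNA, so a pair of genomes has to supply each of complexes I, III and IV. Several complex IV subunits exist as isoforms, with Cox6a2, Cox7a1 and Cox8b known from heart and skeletal muscle and Cox6b2 from testis. Macrophages are known to shift between respiration and glycolysis with their activation state, and complex II also belongs to the tricarboxylic acid cycle. Ndufa4 is counted here by its name with complex I, although its product is now placed in complex IV.

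RefSeq gave a promoter window (GRCm38.p6, from 250 bases before to 50 bases after the gene start) for 50 of the 62 members. The windows below are those of Cox7a2l and Uqcrfs1, the 2 members that rose in both R1 and R3 macrophages after CAWS, and of 3 further members that rose in CAWS R3 macrophages and whose windows hold a searched motif. Sdhb also rose in CAWS R3, and its window, with 3 matches, is not shown. Capitals mark the matches, and each sequence runs 5′ to 3′ on the gene's strand.
Cox7a2l, chr17:83514284-83514583, minus strand: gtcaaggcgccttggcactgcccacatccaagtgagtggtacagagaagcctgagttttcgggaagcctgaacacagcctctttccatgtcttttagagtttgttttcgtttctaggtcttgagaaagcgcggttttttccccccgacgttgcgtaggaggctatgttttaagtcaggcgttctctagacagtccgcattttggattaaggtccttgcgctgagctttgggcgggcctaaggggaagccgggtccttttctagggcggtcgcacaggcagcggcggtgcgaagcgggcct
Uqcrfs1, chr13:30545267-30545566, minus strand: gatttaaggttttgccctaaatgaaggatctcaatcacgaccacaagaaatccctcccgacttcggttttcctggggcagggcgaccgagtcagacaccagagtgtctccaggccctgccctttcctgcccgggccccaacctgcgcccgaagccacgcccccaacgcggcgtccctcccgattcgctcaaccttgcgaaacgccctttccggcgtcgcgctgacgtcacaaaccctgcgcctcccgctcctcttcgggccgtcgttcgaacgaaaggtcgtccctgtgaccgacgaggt
Ndufa6, chr15:82354242-82354541, minus strand: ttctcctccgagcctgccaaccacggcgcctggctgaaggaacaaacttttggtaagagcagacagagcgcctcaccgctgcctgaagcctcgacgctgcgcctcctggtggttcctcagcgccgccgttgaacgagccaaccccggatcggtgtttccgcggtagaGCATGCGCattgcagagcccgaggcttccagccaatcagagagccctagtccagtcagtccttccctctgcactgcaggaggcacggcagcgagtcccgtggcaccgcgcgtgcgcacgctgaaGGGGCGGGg
Uqcrh, chr4:116075021-116075320, minus strand: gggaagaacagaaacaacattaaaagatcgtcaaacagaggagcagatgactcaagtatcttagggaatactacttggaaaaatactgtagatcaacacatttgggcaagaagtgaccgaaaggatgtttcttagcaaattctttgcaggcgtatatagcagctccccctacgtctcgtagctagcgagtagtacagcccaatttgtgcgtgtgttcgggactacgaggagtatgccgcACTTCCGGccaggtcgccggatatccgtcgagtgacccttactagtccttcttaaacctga
Cox8a, chr19:7217567-7217866, minus strand: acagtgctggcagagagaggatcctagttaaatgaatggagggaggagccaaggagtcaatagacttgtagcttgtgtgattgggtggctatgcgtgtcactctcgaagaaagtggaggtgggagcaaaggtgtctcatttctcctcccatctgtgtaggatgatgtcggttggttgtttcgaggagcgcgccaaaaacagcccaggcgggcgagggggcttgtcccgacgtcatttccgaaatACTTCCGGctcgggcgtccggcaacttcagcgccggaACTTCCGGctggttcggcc
The search covered both strands for GCGCATGC (the NRF1 core, a regulator known to act on respiratory chain genes), CCGGAAGT (the core of GABPA, also known as NRF2), AAGATGGC (YY1) and GGGGCGGG (SP1), and no match in the windows shown overlapped another. GCGCATGC was in 6 of the 50 member windows (12%), against 5.91% of the windows of all tested genes, and the 6 were Cox6a1, Ndufa11, Ndufa6, Ndufa8, Sdhb and Uqcrc1. CCGGAAGT was in 3 of 50 (6%) against 9.11%, with Cox8a, Ndufs3 and Uqcrh. AAGATGGC was in 7 of 50 (14%) against 5.3%, and GGGGCGGG in 13 of 50 (26%) against 34.3%. Of the members that rose in CAWS R3, 9 had a window, and 2 of these held the NRF1 motif, 2 that of GABPA, 0 that of YY1 and 2 that of SP1. The windows of Cox7a2l and Uqcrfs1 held 0 matches, which says nothing about the factors themselves.

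Library totals lay between 12800136 and 23006155 counts (median 16763449). A list of 8 macrophage markers, among them Csf1r, Adgre1 and C1qa, summed to between 15940 and 26220 CPM in the heart libraries and to between 4241 and 4905 CPM in the monocytes. A list of 8 classical monocyte markers, among them Ly6c2 and Ccr2, summed to between 8713 and 12550 CPM in the monocytes, and its sum in R1 and R2 libraries was at most 510.8 CPM. Monocyte replicates 1 and 2 stood apart in the genes described here. Monocyte replicate 2 held a summed 8025 CPM of the 62 members, against 4763 CPM in replicate 1 and 4398 CPM in replicate 3. It was the highest of all 21 libraries for 57 of the 62 members. Monocyte replicate 1 held 4457 CPM of the 13 mitochondrially encoded subunit transcripts, against 26490 CPM in replicate 2 and 18190 CPM in replicate 3.

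Transcript levels per gene length (RPKM, which is CPM per 1000 bases of gene length, mean over 21 libraries) spread widely among subunits of 1 complex. In complex IV they ran from 2.89 RPKM for Cox6a2 to 414.0 RPKM for Cox4i1, the common isoform of subunit 4, with a median of 59.2 RPKM. In complex I they ran from 2.64 RPKM for Ndufb4 to 120.8 RPKM for Ndufb8, both accessory subunits, with a median of 42.6 RPKM. In complex III they ran from 23.5 RPKM for Uqcrb to 201.2 RPKM for Uqcrh, the acidic hinge protein, with a median of 72.6 RPKM. In complex II Sdha, Sdhb and Sdhc lay close together at 92.9, 96.6 and 91.8 RPKM, while Sdhd, a membrane anchor, stood at 7.41 RPKM. The low values of Ndufa12, Ndufs5 and Uqcrb are uncertain, since these genes and Ndufs3 have near-identical copies elsewhere in the annotation (97% identity or more) and the handling of reads that match several places is not given in the sources used here. Only protein-coding and pseudogene copies were counted, and Cox7c matched a transcript of another type at 99.57% identity, so its value is uncertain as well.

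Across the 18 heart libraries the highest library exceeded the lowest by a median factor of 1.97 over the members, and by under 2 in 32 members. Sdha, the flavoprotein that oxidises succinate, was the steadiest, with a factor of 1.17 and levels between 248.0 and 290.4 CPM. Ndufs1, the largest iron-sulfur subunit of complex I, and Sdhc, a membrane anchor of complex II, followed with 1.27 each. The widest spreads were those of low-count genes, 11.9 in Ndufs5 and 6.86 in Cox6b2, and of the muscle isoforms Cox7a1 (5.26) and Cox6a2 (4.05).

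**Figure D1:**
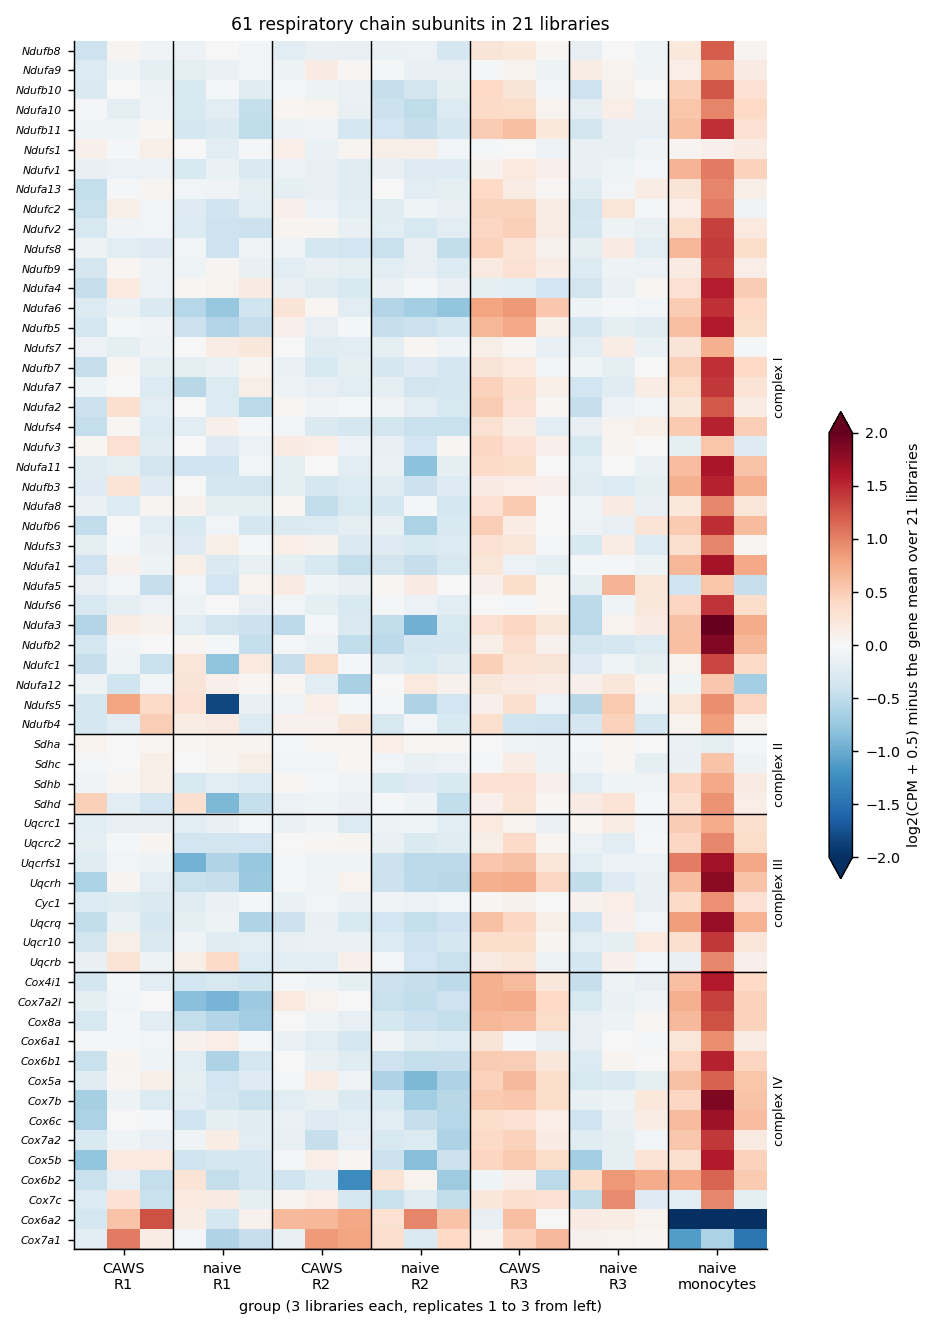
Heat map of 61 members (rows, by complex, with the highest naive R3 mean first) in the 21 libraries (columns, 3 per group). Colour gives log2(CPM + 0.5) minus the gene's mean over 21 libraries, and monocyte replicate 2 is the warmest column, while Cox6a2 is darkest blue in the monocytes, where it had 0 counts.

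The effect of CAWS was asked within each population. In R3 macrophages 10 of the 62 members rose and 0 fell (edgeR's quasi-likelihood test, Benjamini-Hochberg adjusted p under 0.05 over the 13275 genes tested), against 6.7% of all genes tested that rose and 8.29% that fell. The 10 were Ndufa6, Ndufb5 and Ndufb11 of complex I, Sdhb of complex II, Uqcrfs1 and Uqcrh of complex III, and Cox4i1, Cox5a, Cox7a2l and Cox8a of complex IV. In R2 macrophages 3 members rose (Cox5a, Ndufa6 and Cox7a2l) and 0 fell, against 6.79% of all genes that rose and 3.5% that fell. In R1 macrophages 2 rose (Cox7a2l and Uqcrfs1) and 0 fell, against 6.07% that rose and 2.87% that fell. The median log2 fold change over the members was 0.33 in R3, 0.18 in R2 and 0.01 in R1, against -0.06, 0.02 and 0.03 over all genes tested, and it was -0.02, -0.03 and -0.09 in a fit with offsets for gene length.

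Short transcripts moved the same way as the members in R3 and R2, and in R1 they moved more than the members. Of the 62 members 42 had a gene length of 1000 bases or less (67.7%), against 9.82% of the genes tested. Over all 1304 tested genes of that length the median log2 fold change was 0.35 in R3, 0.21 in R2 and 0.16 in R1, and 14.9%, 6.21% and 5.6% of them rose. The 42 members of that length had medians of 0.364 in R3, 0.177 in R2 and 0.004 in R1. The 20 members over 1000 bases had medians of 0.28 in R3, 0.20 in R2 and 0.13 in R1, where all genes over 1000 bases stood at -0.09, 0.004 and 0.015. Most of these 20 members were shorter than the median gene tested (2754 bases), so this split does not match them for length. The mean log2 level of these 20 members, relative to the mean over 21 libraries, was 0.251, 0.267 and 0.044 in CAWS R3 against -0.128, -0.014 and -0.054 in naive R3, and the groups did not overlap. In the fit with offsets, chosen after seeing the data, which take out a smooth trend of counts on gene length in each library, 10 members rose in R3 (7.81% of all genes) and 5 fell (7.73%), 4 rose in R2 (8.07%) and 1 fell (5.11%), and 3 rose in R1 (7.65%) and 3 fell (5.34%). The 5 that fell in R3 were Cox6a1, Cox6b2, Ndufa1, Ndufa4 and Ndufa5. The 3 that fell in R1 were Ndufs7, Cox6a1 and Ndufa4. The 10 that rose in R3 with these offsets kept 8 of the 10 above and lost Cox8a (adjusted p = 0.166 by edgeR) and Sdhb (0.267). The calls of Cox7a2l, Uqcrfs1, Uqcrh, Ndufb5, Cox4i1, Cox5a, Ndufa6 and Ndufb11 in R3 were made in both fits.

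Cox7a2l, a relative of the Cox7a subunits known for its part in joining complexes III and IV and carried by C57BL/6 mice in a shortened form, passed the test in all 3 populations (chr17:83501917-83514333), which no other member did in this fit, while with offsets for gene length Uqcrfs1 did as well. It had 216.5, 238.7 and 249.3 CPM in CAWS R1 macrophages, against 138.8, 130.2 and 149.2 CPM in naive R1. It had 284.1, 260.6 and 246.0 CPM in CAWS R2 macrophages, against 182.2, 175.4 and 185.4 CPM in naive R2. It had 405.7, 413.4 and 325.8 CPM in CAWS R3 macrophages, against 198.8, 225.8 and 235.5 CPM in naive R3. The CAWS and naive libraries did not overlap in any population. The log2 fold changes were 0.75 ± 0.16 (SE) in R1, 0.54 ± 0.16 in R2 and 0.79 ± 0.16 in R3, with adjusted p = 0.00434, 0.0296 and 0.00145 by edgeR. The call in R2 was lost when any of 5 libraries was left out (CAWS R2 replicate 1 or 2, or any naive R2 library; adjusted p up to 0.137) and without the filter on low counts (0.0581), with log2 fold changes from 0.48 to 0.56 in these fits.

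Uqcrfs1 encodes the Rieske iron-sulfur protein, which takes electrons from ubiquinol in complex III (chr13:30540312-30545316). It had 94.4, 107.8 and 104.2 CPM in CAWS R1, against 57.5, 73.5 and 65.4 CPM in naive R1. It had 162.3, 167.0 and 131.5 CPM in CAWS R3, against 94.8, 103.1 and 102.8 CPM in naive R3. Both pairs of groups were apart, and the log2 fold changes were 0.64 ± 0.16 in R1 (adjusted p = 0.0139 by edgeR) and 0.62 ± 0.16 in R3 (0.0109). The R1 call was lost without CAWS R1 replicate 2 (adjusted p = 0.0782 by edgeR), naive R1 replicate 1 (0.0932) or naive R1 replicate 3 (0.0654), and the R3 call without CAWS R3 replicate 2 (0.0622). In R2 the libraries were apart as well, at 108.3, 105.3 and 104.7 CPM in CAWS R2 against 82.8, 76.5 and 77.5 CPM in naive R2, but the gene missed the threshold (0.43 ± 0.16, adjusted p = 0.0929 by edgeR) and passed it with offsets for gene length (0.32 ± 0.10, adjusted p = 0.0303).

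Cox5a, which sits on the matrix side of complex IV, had 64.3, 73.4 and 63.2 CPM in CAWS R2 against 43.1, 35.3 and 43.0 CPM in naive R2. In R3 it had 91.1, 104.2 and 85.0 CPM in CAWS macrophages against 53.2, 54.4 and 58.2 CPM in naive ones. Its log2 fold changes were 0.72 ± 0.15 in R2 and 0.76 ± 0.15 in R3, with adjusted p = 0.00214 and 0.00111 by edgeR, and both calls held in every alternative run. In R1 the groups overlapped, with 56.2, 67.5 and 71.4 CPM in CAWS R1 against 57.7, 50.7 and 55.5 CPM in naive R1. Exons of Cox5a overlap those of a gene on the other strand, as do exons of Cox4i1, Ndufb5, Ndufb11 and 15 other members, and reads of such pairs cannot be told apart where strand was not counted, which the sources used here do not give.

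Ndufa6, an accessory subunit of the complex I matrix arm, had 76.3, 80.8 and 63.9 CPM in CAWS R3 against 41.6, 43.1 and 42.4 CPM in naive R3. In R2 it had 52.7, 45.3 and 37.8 CPM in CAWS macrophages against 29.1, 27.4 and 25.3 CPM in naive ones. The log2 fold changes were 0.80 ± 0.20 in R3 and 0.73 ± 0.20 in R2, with adjusted p = 0.00957 and 0.0250 by edgeR. The R2 call was lost when any of the same 5 libraries as for Cox7a2l was left out (adjusted p up to 0.120 by edgeR) and without the filter on low counts (0.0516).

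Uqcrh had the largest log2 fold change of the members past the test in R3, 0.92 ± 0.24 (adjusted p = 0.0142 by edgeR). It had 161.7, 164.9 and 132.2 CPM in CAWS R3, against 70.4, 82.5 and 89.1 CPM in naive R3. Cox4i1 had 427.1, 405.9 and 304.4 CPM in CAWS R3 against 189.4, 243.8 and 231.9 CPM in naive R3 (0.77 ± 0.21, adjusted p = 0.0186). Ndufb5 and Ndufb11, accessory subunits of the complex I membrane arm, had log2 fold changes of 0.80 ± 0.23 and 0.68 ± 0.19, Cox8a one of 0.63 ± 0.15, and Sdhb, the iron-sulfur subunit of complex II, one of 0.36 ± 0.11. In each of the 10 members all 3 CAWS R3 libraries lay above all 3 naive R3 libraries. That held for 27 of the 62 members, against 16.3% of all genes tested, and 1 member lay wholly below (18.5%). In R2 20 members lay wholly above (20.3%) and 0 below (16.2%), and in R1 10 above (16.1%) and 2 below (12.4%).

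The count of 10 changed with the library left out. The share of all genes past the test in these fits is not given here, so the losses cannot be set against it. The count was 3 without CAWS R3 replicate 2, 5 without CAWS R3 replicate 1 and 5 without naive R3 replicate 1, while Cox5a and Cox7a2l passed in all of these fits. Cox4i1, Ndufb11, Uqcrh, Ndufb5 and Sdhb were lost in each of them (adjusted p up to 0.141 by edgeR). Ndufb5 was also lost without naive R3 replicate 3 (0.0524), and Sdhb without naive R3 replicate 2 (0.0644) or 3 (0.0587). Ndufa6 was lost without CAWS R3 replicate 2 (0.0527). CAWS R3 replicate 3 had lower member levels than its 2 partners, and without it the count was 11 and the median 0.42. The classical monocyte list (8 of 8 genes in the table, 0 of them at 0 in all libraries of either group) also differed between these groups, at 3770 to 4447 CPM in CAWS R3 and 2191 to 2888 CPM in naive R3, most of it from Ccr2. The macrophage list was at 15940 to 17520 CPM in CAWS R3 and 17690 to 19330 CPM in naive R3, and a list of 6 neutrophil markers, of which 2 were at 0 in all 3 libraries of either group, at 101.6 to 106.8 CPM in CAWS R3 and 50.5 to 64.2 CPM in naive R3, nearly all of it from Csf3r, while Ly6g was at 0. Their part in the change of the members was not tested.

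**Figure D2:**
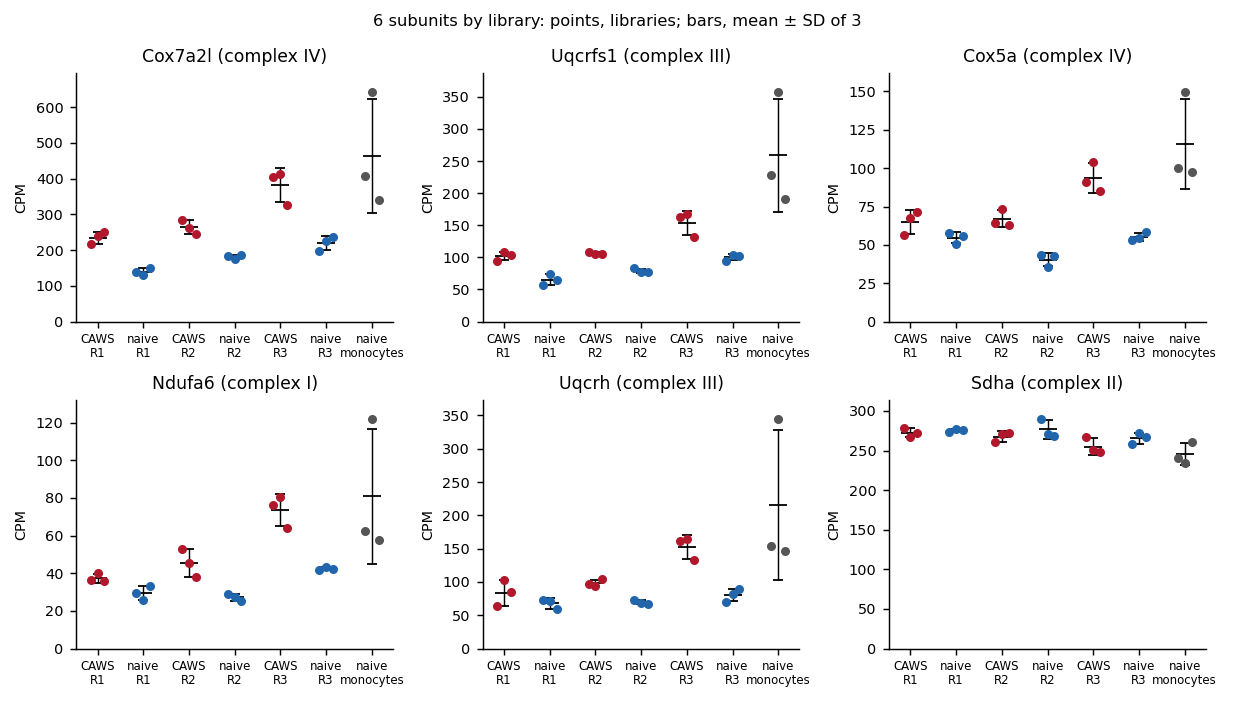
CPM of 6 subunits in each library, with CAWS groups left of the naive group of the same population and the mean and SD of 3 libraries as bars. Cox7a2l separates CAWS from naive in all 3 populations, while Sdha stays between 234.7 and 290.4 CPM in all 21 libraries.

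Several catalytic subunits and the anchors of complex II did not pass the test after CAWS. Sdha had 267.0, 250.1 and 248.0 CPM in CAWS R3 against 258.3, 271.6 and 266.8 CPM in naive R3, a log2 fold change of -0.06 ± 0.08. Sdhc and Sdhd gave 0.09 ± 0.14 and -0.02 ± 0.28. Ndufs1 gave 0.06 ± 0.10 and Cyc1, the cytochrome c1 of complex III, 0.02 ± 0.13. Ndufv1, which binds NADH, gave 0.21 ± 0.12. Of these 6 members 0 passed the test in any CAWS comparison (edgeR), and an estimate near 0 with such errors does not show that the levels were equal.

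Among the complex IV isoforms, Cox6a1 averaged 113.7 ± 17.4 CPM in CAWS R3 and 106.5 ± 6.87 CPM in naive R3 (SD, n = 3 each), Cox6b1 89.2 ± 9.40 CPM in CAWS R3 and 63.6 ± 7.43 CPM in naive R3, Cox7a2 25.5 ± 2.60 CPM in CAWS R3 and 17.8 ± 1.25 CPM in naive R3, and Cox7b 56.3 ± 3.6 CPM in CAWS R3 and 40.0 ± 5.65 CPM in naive R3. The log2 fold change of Cox6a1 was 0.09 ± 0.15, that of Cox6b1 0.49 ± 0.22, that of Cox7a2 0.51 ± 0.22 and that of Cox7b 0.49 ± 0.27, and of these 4 genes 0 passed the test over all 21 libraries (adjusted p = 0.720, 0.145, 0.128 and 0.230 by edgeR). In a fit of only these groups Cox6b1, Cox7a2 and Cox7b passed (adjusted p = 0.0208, 0.0317 and 0.0228 by edgeR). Cox6b2 had 2.11, 2.47 and 1.40 CPM in CAWS R3 against 3.01, 4.52 and 4.10 CPM in naive R3. Its groups were apart, but it missed the threshold (-0.97 ± 0.37, adjusted p = 0.0810 by edgeR) and passed it with offsets for gene length (-1.40, adjusted p = 0.00542).

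**Figure D3:**
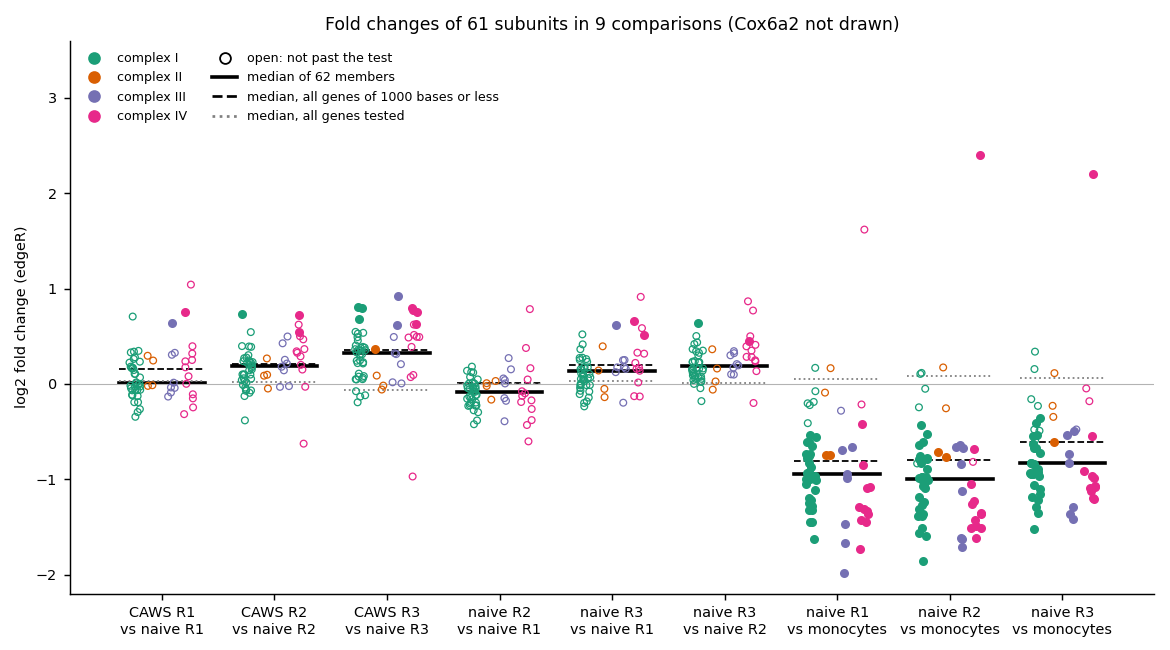
Log2 fold changes (edgeR) of 61 members in 9 comparisons, by complex, with Cox6a2 left out because its monocyte libraries are all at 0. Filled points passed the test, the thick line is the median of all 62 members, the dashed line that of all genes of 1000 bases or less, and the dotted line that of all genes tested. The thick line lies near the dashed one in CAWS R2 and R3 (0.18 and 0.33 against 0.21 and 0.35) and below it in CAWS R1. Nearly all points are below 0 against monocytes.

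Whether the response to CAWS differed between populations was tested as the difference between the log2 fold changes. No member passed in R2 minus R1, R3 minus R1 or R3 minus R2 by edgeR, nor by DESeq2, and 1, 2 and 0 members had an unadjusted p under 0.05. Of all genes tested, 0.0377%, 0.0979% and 0.0979% passed upward and 0.0151%, 2.16% and 2.23% downward. The median difference over the members was 0.08 in R2 minus R1, 0.25 in R3 minus R1 and 0.12 in R3 minus R2, against -0.01, -0.08 and -0.07 over all genes and 0.06, 0.23 and 0.17 over genes of 1000 bases or less, and with offsets for gene length the R3 minus R2 median turned to -0.016. A further fit took the replicate number, which was assumed to mark the pool, as a replicate block. In it 4 members passed in R3 minus R1, all with a larger response in R3 (1.39% of all genes passed in that direction). They were Cox4i1 (0.59 ± 0.14, adjusted p = 0.00869 by edgeR), Cox5a (0.50 ± 0.13, 0.0210), Ndufb9 (0.45 ± 0.13, 0.0373) and Cox7a2 (0.66 ± 0.20, 0.0458). Without the block the smallest p-values were those of Cox5a in R2 minus R1 (0.47 ± 0.21) and R3 minus R1 (0.51 ± 0.20), with adjusted p = 0.879 and 0.261 by edgeR.

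Few members differed between the naive populations. Naive R3 exceeded naive R1 in 3 members (Cox7a2l, Uqcrfs1 and Cox8a) and fell below it in 0, against 12.5% of all genes that were higher and 10.7% that were lower. Naive R3 exceeded naive R2 in 2 members (Ndufa6 and Cox5a) and fell below it in 0, against 6.63% and 5.77% of all genes. Between naive R2 and naive R1 no member passed the test by edgeR or by DESeq2, 2 members had an unadjusted p under 0.05, and 3.88% of all genes were higher and 3.25% lower in naive R2. The members' medians were 0.14 in naive R3 against R1 and 0.18 in naive R3 against R2, which became -0.04 and 0.06 with offsets for gene length, and -0.08 in naive R2 against R1. With those offsets naive R3 exceeded naive R1 in 3 members (14.7% of all genes) and fell below it in 8 (13.4%), which were Sdhc, Ndufs7, Uqcrb, Ndufb9, Ndufb8, Cox6a1, Ndufa4 and Ndufb2. Naive R3 lay wholly above naive R2 in 18 members (16.7% of all genes) and below in 2 (16.5%), and wholly above naive R1 in 10 (19.7%) and below in 1 (17.3%). Naive R2 lay wholly above naive R1 in 4 (14.4%) and below in 13 (13.1%).

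Cox7a2l had 198.8, 225.8 and 235.5 CPM in naive R3 against 138.8, 130.2 and 149.2 CPM in naive R1, a log2 fold change of 0.66 ± 0.16 (adjusted p = 0.00358 by edgeR). Uqcrfs1 was higher by 0.62 ± 0.16 (0.00681) and Cox8a by 0.51 ± 0.15 (0.0143). The call of Uqcrfs1 was lost without naive R1 replicate 1 (adjusted p = 0.0575 by edgeR), and that of Cox8a without naive R1 replicate 2 (0.0591), naive R1 replicate 3 (0.0832) or naive R3 replicate 3 (0.0549). Cox8a averaged 116.2 ± 8.24 CPM in naive R3 and 81.2 ± 6.12 CPM in naive R1 (SD, n = 3 each). The naive R1 and naive R3 libraries of this comparison also serve in the CAWS comparisons, so these calls are no independent repeat of those. Ndufa6 was higher in naive R3 than in naive R2 by 0.64 ± 0.20 (adjusted p = 0.0442 by edgeR) and Cox5a by 0.45 ± 0.15 (0.0497), and the count was 0 when any 1 of the 6 libraries was left out, under another scaling, with a stricter filter on low counts and with no filter. Between naive R2 and naive R1 the smallest p-values were those of Cox5a (-0.43 ± 0.15, adjusted p = 0.0855) and Cox7a2l (0.38 ± 0.16, 0.183).

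Naive libraries with the same replicate number were assumed to come from 1 pool, which the sample titles do not state. With that number as a replicate block more members passed. Naive R3 exceeded naive R2 in 9 members (12.2% of all genes were higher), naive R3 exceeded naive R1 in 6 (18%), and naive R2 differed from naive R1 in 4, with Cox7a2l and Uqcrfs1 higher (7.86%) and Cox5a and Cox6a1 lower (7.0%). In that fit Cox7a2l stood at 0.66 ± 0.09 in R3 against R1, 0.28 ± 0.08 in R3 against R2 and 0.38 ± 0.09 in R2 against R1, so its 3 naive levels were ordered R1, R2, R3 with each neighbour past the test. Cox5a followed another order, with naive R2 lowest at 43.1, 35.3 and 43.0 CPM and naive R1 and naive R3 overlapping.

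Most members were lower in naive macrophages than in naive monocytes. In naive R1 49 of the 62 members were lower and 1 was higher, against 30.8% of all genes lower and 32.5% higher. In naive R2 52 were lower and 2 higher, against 30.5% and 33.1%. In naive R3 47 were lower and 2 higher, against 27.1% and 31.9%. The medians were -0.94, -1.0 and -0.83 on the log2 scale, against 0.05, 0.08 and 0.06 over all genes. All 3 libraries lay below all 3 monocyte libraries in 47, 52 and 44 members, against 29.7%, 30.4% and 25.9% of all genes. Of the 62 members 46 were lower in all 3 populations, the 10 that rose in CAWS R3 among them, and the comparisons with CAWS and with monocytes share the naive libraries.

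Gene length again moved with the result. Genes of 1000 bases or less had medians of -0.81, -0.80 and -0.61 and 55.5%, 56.0% and 47.9% of them were lower. The 20 members over 1000 bases had medians of -0.76, -0.77 and -0.64 where all genes over 1000 bases stood at 0.12, 0.14 and 0.11. Most of these 20 members were shorter than the median gene tested, so here too the split does not match them for length. With offsets for gene length 28, 37 and 33 members were lower (35.0%, 35.0% and 33.0% of all genes), not all of them the same members as without offsets. In that fit 10, 4 and 4 were higher (30.3%, 30.3% and 29.2%), and the medians were -0.25, -0.37 and -0.27. Monocyte replicate 2 carried a large part of the size: without it the medians were -0.54, -0.62 and -0.47, with 40, 46 and 40 members past the test. The share of all genes past the test in that fit is not given here, so these counts cannot be set against it.

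Uqcrfs1 was lower in all 3 populations. It had 57.5, 73.5 and 65.4 CPM in naive R1, 82.8, 76.5 and 77.5 CPM in naive R2 and 94.8, 103.1 and 102.8 CPM in naive R3, against 227.6, 358.1 and 191.3 CPM in monocytes. No heart group overlapped the monocytes, and the log2 fold changes were -1.98 ± 0.16, -1.71 ± 0.16 and -1.37 ± 0.16 (adjusted p = 4.42e-10, 4.04e-09 and 1.75e-07 by edgeR). Cox7a2l followed in naive R1 with -1.73 ± 0.16, and gave -1.36 ± 0.16 in naive R2 and -1.08 ± 0.16 in naive R3. Cox8a gave -1.43 ± 0.15 and -1.26 ± 0.15 in naive R1 and R2, and Cox5a -1.51 ± 0.15 and -1.07 ± 0.14 in naive R2 and R3. Ndufv1, the entry point for NADH, gave -0.99 ± 0.12, -0.98 ± 0.12 and -0.84 ± 0.12, Uqcrc2, a core protein of complex III, gave -0.99 ± 0.13 in naive R1, and Ndufb3 gave -1.30 ± 0.19 in naive R3. All of these values passed the test, and they also passed it with offsets for gene length.

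Most members of complexes I, III and IV were lower, and complex II was split. Of complex I 29, 31 and 29 of 36 members were lower in naive R1, R2 and R3, of complex III 7, 8 and 7 of 8, and of complex IV 11, 11 and 10 of 14. Of complex II, Sdhb was lower in all 3 (-0.75 ± 0.12 in naive R1) and Sdhd in naive R1 and R2. Both calls of Sdhd were lost with offsets for gene length (adjusted p = 0.103 and 0.112 by edgeR) and without monocyte replicate 2 (0.168 and 0.171), the R2 call also without naive R2 replicate 3 (0.111), and the R1 call also without naive R1 replicate 2 (0.127) or 3 (0.0774), in a fit of only the groups compared (0.0907) and with a replicate block (0.0880). Sdha leaned the other way, with 273.0, 277.3 and 275.7 CPM in naive R1 against 241.0, 234.7 and 260.6 CPM in monocytes, and missed the threshold (0.17 ± 0.08, adjusted p = 0.0631 by edgeR). Ndufs1, Sdhc, Ndufa5, Ndufa12, Ndufb4, Ndufv3 and Cox7c did not pass in any of the 3 comparisons in the main fit. With offsets for gene length Ndufs1 was lower in naive R1, R2 and R3 (-0.34, -0.22 and -0.39). Ndufa5 (0.87, 0.98 and 1.01) and Ndufa12 (1.09, 0.97 and 0.82) were higher in all 3 with them, and Sdhc (0.24) and Cox7c (0.87) in naive R1. Cox6a1 was lower in all 3 (-0.42, -0.68 and -0.55), it turned to 0.53, 0.19 and 0.13 with offsets for gene length, and without monocyte replicate 2 it was -0.12 in naive R1.

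**Figure D4:**
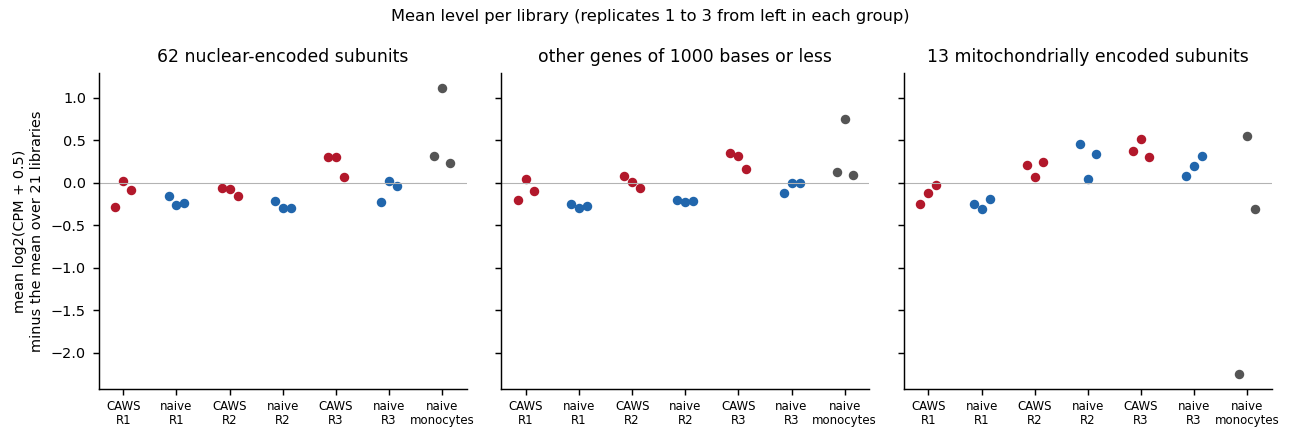
Mean log2 level of each library, relative to the mean over 21 libraries, for the 62 members, for other genes of 1000 bases or less and for the 13 mitochondrially encoded subunits. Monocyte replicate 2 is highest for the members (1.12) and for short genes (0.75), and monocyte replicate 1 is lowest for the mitochondrial set (-2.25).

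The muscle isoforms of complex IV went against the rest. Cox6a2 (chr7:128205435-128206366) was the 1 member higher in naive R1 than in monocytes, and Cox6a2 and Cox7a1 were the 2 higher in naive R2 and R3. They reached the 1 CPM minimum of the member rule in 18 and 13 libraries, all of them from hearts. The rule thus kept these 2 genes only through the groups where they are high, and their direction against monocytes is no independent result. Cox6a2 had 1.78, 1.12 and 1.67 CPM in naive R1, 2.03, 3.53 and 2.56 CPM in naive R2 and 1.80, 1.77 and 1.65 CPM in naive R3, against 0 counts among 51349901 in the 3 monocyte libraries. Set against a floor of 3 counts over the monocyte group (0.0584 CPM, counting error only), it was at least 27.9-fold higher in naive R1, at least 44.2-fold in naive R2, and at least 30.0-fold in naive R3. In CAWS macrophages it was of the same order, with 1.10 to 4.47 CPM in R1, 2.71 to 2.99 CPM in R2 and 1.33 to 2.62 CPM in R3. It shares 70 bases with Itgad on the other strand, which had 1.29 to 3.14 CPM in the monocytes, where Cox6a2 had 0 counts.

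Cox7a1 had 0.99, 0.50 and 0.60 CPM in naive R1, 1.40, 0.74 and 1.5 CPM in naive R2 and 1.10, 1.09 and 1.06 CPM in naive R3, against 0.19, 0.48 and 0.056 CPM in monocytes. All heart libraries lay above all monocyte libraries. The log2 fold changes were 1.62 ± 0.81 for naive R1, 2.40 ± 0.69 for naive R2 and 2.21 ± 0.74 for naive R3, with adjusted p = 0.0842, 0.00430 and 0.0135 by edgeR, and they rest on 37, 78 and 54 counts against 11 in monocytes. Without monocyte replicate 3 the call in naive R3 was lost (adjusted p = 0.0840 by edgeR). Cox7a2, the isoform of most tissues, was lower than in monocytes in all 3 populations, in naive R1 only without offsets for gene length (-0.13, adjusted p = 0.393 with them).

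A list of 20 cardiomyocyte markers was likewise higher in naive heart libraries than in monocytes. Its sum was 71.1 to 98.1 CPM in R1 of naive hearts, 156.7 to 209.8 CPM in naive R2 and 167.9 to 202.0 CPM in naive R3, against 0.785 to 1.35 CPM in monocytes, where 8 of the 20 genes were at 0 in all 3 libraries. Mb, the oxygen store of heart muscle, had 15.2 to 18.2 CPM in naive R1, 31.5 to 44.7 CPM in naive R2 and 36.9 to 37.5 CPM in naive R3, against 0.0561 to 0.137 CPM in monocytes. The list was at 90.8 to 137.6 CPM in CAWS R3, below naive R3, while Cox7a1 was at 1.09 to 1.87 CPM in CAWS R3 and 1.06 to 1.10 CPM in naive R3, and Cox6a2 was at 1.33 to 2.62 CPM in CAWS R3 and 1.65 to 1.80 CPM in naive R3, so that both isoforms overlapped between the groups. In CAWS R1 the list was at 123.0 to 145.1 CPM, above naive R1, and in CAWS R2 it was at 149.0 to 224.6 CPM, which overlapped naive R2. The part of heart muscle RNA in the levels of Cox6a2 and Cox7a1 was not tested.

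**Figure D5:**
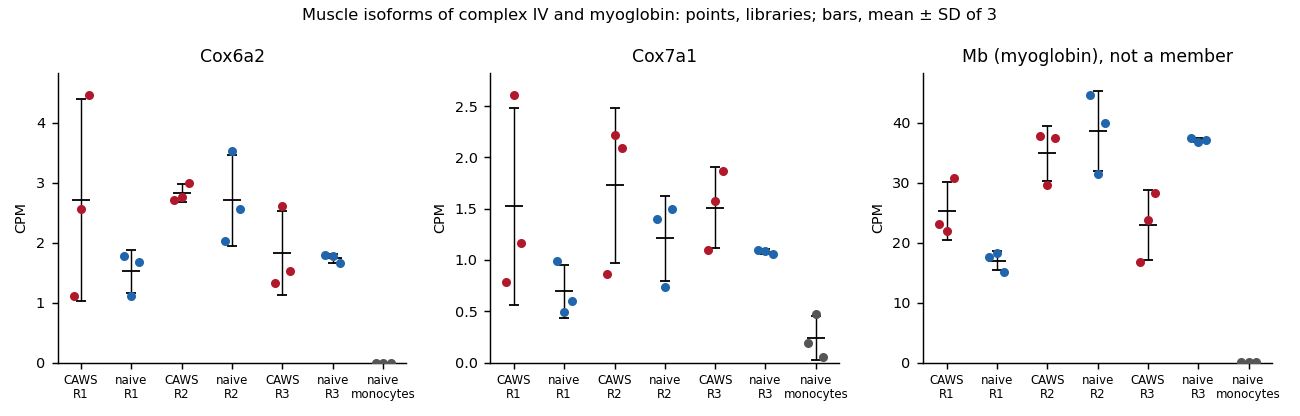
CPM of Cox6a2, Cox7a1 and the muscle marker Mb in each library, by group, with the mean and SD of 3 libraries as bars. All 3 are at or near 0 in monocytes, and Mb is lower in naive R1 (15.2 to 18.2) than in naive R2 and R3 (31.5 to 44.7).

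The mitochondrially encoded subunits, 13 proteins that complete complexes I, III, IV and V, were read in the same libraries. Of these 13 genes 0 passed the test in the 3 CAWS comparisons by edgeR or by DESeq2, 1 had an unadjusted p under 0.05 (ND3 in R3), and the medians were 0.12 in R1, -0.06 in R2 and 0.14 in R3, or -0.097, -0.243 and -0.129 with offsets for gene length. Their summed level was 18290 to 20600 CPM in naive R1, 24760 to 30340 CPM in naive R2 and 25420 to 27460 CPM in naive R3. Naive R2 and R3 lay above naive R1 in the sum, though by gene 0 of 13 passed the test by edgeR or DESeq2 and 0 had an unadjusted p under 0.05 (medians 0.51 and 0.49). Against monocytes ND2, ND4 and CYTB were higher in naive R2 and R3, and ND4L in naive R2, while 0 passed in naive R1 (0 by DESeq2 and 0 at an unadjusted p under 0.05). Of all genes tested 32.5%, 33.1% and 31.9% were higher in naive R1, R2 and R3 and 30.8%, 30.5% and 27.1% lower. With offsets for gene length 6, 8 and 6 of the 13 were higher in naive R1, R2 and R3 (30.3%, 30.3% and 29.2% of all genes) and 0 were lower (35.0%, 35.0% and 33.0%). These values rest on the monocyte libraries that stood apart: in naive R1 5 genes were lower without monocyte replicate 1 and 5 were higher without monocyte replicate 2. Without monocyte replicate 2, 8 were higher in naive R2 and 9 in naive R3. For these counts with a monocyte library left out, the share of all genes past the test is not given here.

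ATP synthase (18 genes), which uses the proton gradient, had 0 genes past the test in CAWS R1 (0 by DESeq2 and 0 at an unadjusted p under 0.05), 1 that rose in CAWS R2 and 2 that rose in CAWS R3. Of all genes tested 6.07%, 6.79% and 6.7% rose in CAWS R1, R2 and R3 and 2.87%, 3.5% and 8.29% fell, which is the background for this list and those that follow. The medians were 0.11, 0.20 and 0.41, or -0.015, 0.018 and 0.022 with offsets for gene length. Atp5d, the delta subunit of the rotor, had 179.0, 164.8 and 151.0 CPM in CAWS R3 against 110.8, 116.6 and 119.8 CPM in naive R3, a log2 fold change of 0.51 ± 0.11 (adjusted p = 0.00363 by edgeR), and rose by 0.39 ± 0.11 in R2. Both calls of Atp5d were lost with these offsets (adjusted p = 0.112 and 0.0957 by edgeR). Atp5c1, the gamma subunit, rose in R3 by 0.59 ± 0.16 (0.0194). Against monocytes 16, 15 and 15 of 18 genes were lower in naive R1, R2 and R3 (30.8%, 30.5% and 27.1% of all genes), and 1 gene, Atpif1, which inhibits the enzyme, was higher in each (32.5%, 33.1% and 31.9%).

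Of the assembly factors (46 of 48 tested), 4 rose (8.7%, against 6.7% of all genes) and 0 fell in CAWS R3, with a median of 0.15 that turned to -0.068 with offsets for gene length. Surf1, Coa4 and Cmc1 act on complex IV and Sdhaf3 on complex II. Surf1, needed for the heme-bearing core of complex IV, had 51.5, 55.4 and 48.6 CPM in CAWS R3 against 29.0, 25.2 and 31.1 CPM in naive R3. It rose by 0.87 ± 0.15 in R3 (adjusted p = 0.000402 by edgeR) and by 0.71 ± 0.15 in R1 (0.00440). Coa4 rose by 1.16 ± 0.23, Cmc1 by 0.72 ± 0.19 and Sdhaf3 by 0.99 ± 0.32 in R3, of which the call of Sdhaf3 was lost with the offsets (adjusted p = 0.257 by edgeR). In R1 Lrpprc, which stabilises mitochondrial mRNAs, fell by 0.51, and in R2 0 of 46 passed by edgeR, 1 by DESeq2 and 7 at an unadjusted p under 0.05. Against monocytes 23, 25 and 19 were lower (30.8%, 30.5% and 27.1% of all genes) and 5, 2 and 2 higher (32.5%, 33.1% and 31.9%) in naive R1, R2 and R3.

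The tricarboxylic acid cycle (19 genes), which supplies NADH and succinate, was mixed. Idh3b, a subunit of NAD-dependent isocitrate dehydrogenase, rose in all 3 CAWS populations (0.61 ± 0.13 in R1, 0.59 ± 0.13 in R2 and 0.69 ± 0.13 in R3), while Idh3a of the same enzyme fell by 0.55 in R1 and by 0.44 in R3. Cs, citrate synthase, rose in R2 by 0.38 ± 0.09, and Suclg2 fell by 0.47 in R3. Between naive populations Cs was higher in R3, with 201.1, 166.1 and 182.0 CPM in naive R3 against 119.6, 119.9 and 127.1 CPM in naive R1 (0.58 ± 0.09, adjusted p = 5.05e-05 by edgeR) and by 0.55 ± 0.09 against naive R2. Against monocytes 12, 13 and 13 of 19 genes were lower (30.8%, 30.5% and 27.1% of all genes) and 4, 3 and 3 higher (32.5%, 33.1% and 31.9%) in naive R1, R2 and R3.

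Other electron carriers and entry points (19 of 20 tested) had 0 genes past the test in CAWS R2 and R3 by edgeR or DESeq2 (1 in each at an unadjusted p under 0.05) and 1, Coq2 of ubiquinone synthesis, that fell in R1 (by 0.61). Among regulators of mitochondrial biogenesis (15 of 18 tested), Pprc1, a coactivator related to PGC-1, fell by 0.76 in CAWS R1 and by 0.61 in CAWS R3 (adjusted p = 0.0697 by edgeR with offsets for gene length), Mterf4 rose by 0.90 ± 0.23 in CAWS R1, and 0 passed in CAWS R2 by edgeR (1 by DESeq2 and 6 at an unadjusted p under 0.05). Ppargc1b, PGC-1 beta, was lower in naive R2 than in naive R1 (-1.27 ± 0.38) and lower in naive R3 than in naive R1 (-1.19 ± 0.40). Against monocytes 3, 1 and 1 of these regulators were lower (30.8%, 30.5% and 27.1% of all genes) and 2, 2 and 2 higher (32.5%, 33.1% and 31.9%) in naive R1, R2 and R3.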

How the data were processed

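RNA of pooled, sorted cells was read as TruSeq mRNA libraries, per the labels' protocols. The authors deposited counts per gene, made with featureCounts on mm10, per the submitters' processing notes. No source used here names the aligner, strand setting, annotation or versions. All 21 per-sample files match the combined table. Replicates differed by more than sampling noise in every group (chi-square per degree of freedom 9.71 to 122).

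The counts were fitted with edgeR 4.0.16 (limma 3.58.1, R 4.3.3): TMM scaling, filterByExpr (minimum count 10, minimum total 15), 7 group means over all 21 libraries and the robust quasi-likelihood test, two-sided, with Benjamini-Hochberg adjustment over 13275 genes. All 62 members were tested. Standard errors were taken from the fold change and the F statistic. The script was tested on simulated data. The CPM of the member rule and of the floor of 3 counts, with its folds, use library totals. All other CPM use totals over the tested genes scaled by the TMM factors, and RPKM divide these by the deposited gene lengths. DESeq2 1.42.0, RLE scaling, 2 other filters, fits of only the groups compared, a replicate block and leaving out each library were run beside it, and offsets for gene length were added after seeing the data.

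R1, R2 and R3 of a treatment share pools per the series design, and all 18 correlations of same-numbered libraries within a treatment lay between 0.142 and 0.609 (threshold 0.1). The other 45 same-numbered pairs lay between -0.247 and 0.669. These ranges overlap, so the correlations alone do not tell shared pools from unshared ones. Numbers do not pair CAWS with naive mice or hearts with spleens. Genes named with values are isoform families, the Sdh subunits, cofactor-binding subunits, the extremes of level and, per comparison, up to 5 members each way with the smallest p past the test. Ndufb5, Ndufb11, Ndufb9 and the list genes named were chosen after their values were seen. 1 complex I member is counted but not reported by name here. The members and lists were chosen with earlier results of these data known.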

Additional observations from a re-analysis of the deposited data

Results flagged for a closer look

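The replicate number, assumed to mark the pool, was taken as a replicate block, and the difference itself was tested (edgeR, adjusted over 13275 genes). In that fit the response to CAWS differed between R3 and R1 macrophages in 4 members. That is 6.45% of the members, against 7.28% of all genes tested, of which 1.39% had a higher and 5.9% a lower value in R3. The difference of the log2 fold changes was 0.4515 for Ndufb9, 0.595 for Cox4i1, 0.5026 for Cox5a and 0.6644 for Cox7a2, larger in R3 in each. Without the block it was 0.45, 0.60, 0.51 and 0.67, with adjusted p = 0.583, 0.406, 0.261 and 0.367 by edgeR. With the block, 0 members passed for R2 minus R1 (0.927% of all genes) and 0 for R3 minus R2 (6.34%). For Cox5a the block estimate was 0.47 in R2 minus R1 and 0.03 in R3 minus R2, with adjusted p = 0.115 and 0.947 by edgeR. What the difference rests on was not tested.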

How the results depend on the processing

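Fitting only the groups compared changed the count of members past the test to 4 in CAWS R1, 13 in R2, 17 in R3, 2 in naive R2 against R1 and 8 in naive R3 against R2 (10%, 20.5%, 15.2%, 11.4% and 15.7% of all genes passed in those fits). With a replicate block, which for CAWS against naive rests on a shared number only, it was 4 in CAWS R1, 12 in R2 and 13 in R3 (9.32%, 19.2% and 14.6% of all genes), with Uqcrfs1 and Cox8a in all 3 and Cox6b1 and Cox7b in R3. With the block it was 4 in the R3 minus R1 response (7.28% of all genes), 4 in naive R2 against R1 (14.9%), 6 in naive R3 against R1 (33.5%) and 9 in naive R3 against R2 (23.8%). Against monocytes it was 41, 50 and 42 (51.2%, 55.1% and 47.9%). With no filter the count was 1 in CAWS R2, and naive R3 against R2 gave 0 with no filter, a stricter filter or RLE scaling. Offsets for gene length gave 6 in CAWS R1, 5 in R2, and 3, 11 and 1 in naive R2 against R1, R3 against R1 and R3 against R2. In that fit 5.27% of all genes were higher and 5.25% lower in naive R2 against R1, and 8.64% higher and 7.03% lower in naive R3 against R2. The members' medians with offsets were -0.025 in CAWS R2, -0.019 in R3, 0.019 and -0.016 in the R3 minus R1 and R3 minus R2 responses, -0.154, -0.043 and 0.056 in the 3 naive comparisons, and -0.25, -0.37 and -0.27 against monocytes in R1, R2 and R3. Cox6a1 turned to 0.53, 0.19 and 0.13 there. The cause of these changes was not tested.

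Leaving out 1 library gave counts of 1 to 2, 1 to 3 and 3 to 11 in CAWS R1, R2 and R3, with medians of -0.03 to 0.10, 0.14 to 0.21 and 0.24 to 0.42. For this and the other counts with 1 library left out, the share of all genes past the test is not given here. The response differences had 0 calls and medians of 0.02 to 0.15, 0.17 to 0.38 and 0.07 to 0.22. Naive R2 against R1 had 0 (-0.12 to -0.06), R3 against R1 2 to 4 (0.08 to 0.18) and R3 against R2 0 (0.12 to 0.26). Against monocytes counts were 40 to 51, 46 to 56 and 40 to 53, with medians of -1.14 to -0.54, -1.22 to -0.62 and -1.08 to -0.47. The count fell to 1 in CAWS R1 without CAWS R1 replicate 2 or naive R1 replicate 1 or 3. Of 1686 values of genes picked by the rule for named genes under other settings 3 reversed, 23 lost and 64 gained a call, and of 1842 with 1 library left out 0 reversed, 60 lost and 9 gained one. With 3 libraries a group, low-count members such as Cox6a2, Cox7a1 and Cox6b2 rest on few reads.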
